A study of Cricetulus griseus with 19 samples.

Results

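Lamp1, Lamp2, Neu1 and Npc1, 4 genes of the lysosome, were followed at the RNA level in 19 libraries of the Chinese hamster line Paradaux. Each of the 4 symbols matched 1 transcript target by RefSeq accession (Lamp1 NM_001246830.1, Lamp2 NM_001246749.1, Neu1 NM_001246800.1 and Npc1 NM_001246687.1), so the members are 4 of 46718 targets and 4 of 330 genes with a protein-coding symbol. All 4 passed the filter on low counts. Reads of Lamp2, Neu1 and Npc1 were whole numbers (within 1e-06) in all 19 libraries, so no fraction of a read was assigned to another target. Lamp1 was whole in 10 libraries and fractional in the others, so part of its reads was shared with other targets. How many of its reads were shared cannot be told from the counts. Other transcripts of these genes were not analysed here, so each value is that of 1 transcript record and not of a gene summed over its forms.

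Lysosomes are acidic organelles that digest material taken up from outside or delivered by autophagy. Lamp1 and Lamp2 encode the heavily glycosylated proteins that line the inner face of the lysosomal membrane, and Lamp2 also serves in autophagy. Npc1 encodes the membrane protein that moves cholesterol out of lysosomes after lipoprotein uptake. Neu1 encodes the lysosomal sialidase, an enzyme that removes sialic acid from glycoproteins and glycolipids.

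Paradaux derives from CHO-K1, a clonal ovary-derived line, and its series covers long-term culture of cells that carry a synthetic circuit for control of their own number. By label there were 4 cultures of uncontrolled growth, 7 of negative feedback, 7 of paradoxical feedback and a parental line with 1 library. Paradoxical feedback is a design in which the same signal promotes both growth and death. All cells were harvested after 2 days below 80% confluence, and polyadenylated RNA was sequenced. The target of the inserted construct had reads in all 19 libraries, uncontrolled and parental ones included. The labels give no agent, dose or duration of culture, nor do they state that the numbered cultures were kept apart throughout. The p-values therefore measure the spread between these samples, which may be technical in part. None of 25 marker symbols for mesenchymal, epithelial, blood or ovarian cells matched a named target, so the cell type was not checked.

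Libraries held 9.91 to 13.2 M estimated counts, and the least abundant member value was 150 counts (Neu1). Negative feedback cultures 3 to 7 stood apart from cultures 1 and 2 of the same group. The share of counts that fell on targets shorter than 800 nt was 6.12 to 7.22% in cultures 3 to 7, 14.1 and 13.3% in cultures 1 and 2, 12.2 to 13.4% in uncontrolled cultures, 8.50 to 12.4% under paradoxical feedback and 11.8% in the parental library. Results for negative feedback are given with and without cultures 3 to 7, and these cultures form no group of the study.

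Per unit of length, Lamp1 was the most abundant of the 4 and Npc1 the least. In TPM, the authors' unit that corrects counts for effective length, uncontrolled cultures held 350.3 ± 26.9 TPM of Lamp1, 48.6 ± 5.42 TPM of Neu1, 35.9 ± 6.41 TPM of Lamp2 and 6.59 ± 0.737 TPM of Npc1 (SD, n = 4 each). Lamp1 lay above 98.7% of the 28555 tested targets by this level, Neu1 above 90.7%, Lamp2 above 87.9% and Npc1 above 65.1%. Lamp1 exceeded Lamp2, and Neu1 and Lamp2 each exceeded Npc1, in 19 of 19 libraries. The order of Lamp2 and Neu1 changed with the culture, since Lamp2 was the higher in 0 of 4 uncontrolled, 5 of 7 negative feedback and 6 of 7 paradoxical feedback cultures and in the parental library.

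The following levels are CPM, which are counts relative to the TMM-scaled library size of edgeR, and compare the same gene between libraries. Lamp2 stood at 46.3, 37.3, 33.5 and 35.6 CPM in uncontrolled cultures 1 to 4. Under negative feedback it stood at 47.8 and 44.6 CPM in its first 2 cultures, whereas cultures 3 to 7 held 96.55, 128, 105, 135 and 104 CPM. Thus culture 2 lay inside the uncontrolled range and culture 1 just above it, so that the groups overlapped, and cultures 3 to 7 lay above every other library. The 7 paradoxical feedback cultures held 34.7, 71.4, 36.5, 95.1, 33.0, 38.3 and 50.6 CPM. Cultures 2 and 4 were the high ones in that group, and cultures 1, 3, 5 and 6 lay within the uncontrolled range or just below it. The parental library was at 50.4 CPM, above all 4 uncontrolled cultures.

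Npc1 stood at 26.7, 23.4, 23.4 and 21.2 CPM in uncontrolled cultures 1 to 4 and at 25.1 CPM in the parental library. Under negative feedback it reached 27.05 and 29.1 CPM in cultures 1 and 2 and 48.3, 46.5, 46.1, 42.5 and 39.2 CPM in cultures 3 to 7. All 7 negative feedback cultures lay above all 4 uncontrolled cultures in CPM, and 1.67% of tested targets showed a gap of this kind and direction. In TPM the groups overlapped, since negative feedback culture 1, at 6.77 TPM, lay inside the uncontrolled range of 6.22 to 7.70 TPM. Under paradoxical feedback, cultures 1 to 4 and 7 held 28.4, 28.02, 32.3, 33.5 and 31.4 CPM, above the uncontrolled range, whereas cultures 5 and 6 were below it at 19.5 and 20.2 CPM. The share of counts on short targets was 12.4 and 11.4% in paradoxical cultures 5 and 6, against 8.50 to 10.03% in the other members of that group.

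Neu1 ran the other way in many of the same libraries. It stood at 59.5, 52.4, 57.1 and 45.7 CPM in uncontrolled cultures and at 42.6 CPM in the parental library. Negative feedback cultures 1 and 2 held 51.0 and 52.2 CPM, inside the uncontrolled range, and cultures 3 to 7 held 22.6, 25.6, 22.9, 32.8 and 33.2 CPM, all below it. In TPM the gap within the group was narrower, with 41.5 and 45.9 TPM in cultures 1 and 2 and 27.1 to 40.5 TPM in cultures 3 to 7. Culture 1 then lay below the uncontrolled range of 43.6 to 55.8 TPM. Paradoxical feedback cultures held 34.9, 22.1, 13.6, 71.9, 38.3, 30.7 and 30.4 CPM. In that group 6 of 7 lay below every uncontrolled culture, and culture 4 lay above every one.

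Lamp1 was the steadiest of the 4 across uncontrolled and negative feedback cultures. Uncontrolled cultures held 573, 606, 628 and 648 CPM and the parental library 687 CPM. Under negative feedback the lowest, median and highest values were 499, 597 and 662 CPM, so the ranges overlapped widely, and cultures 3 to 7 (499 to 620 CPM) lay below cultures 1 and 2 (662 and 660 CPM). In TPM that order flipped, with 373 to 464 TPM in cultures 3 to 7 against 340 and 366 TPM in cultures 1 and 2. Under paradoxical feedback they were 425, 568 and 898 CPM, a wider range that held both the lowest and the highest library of the series.

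**Figure D1:**
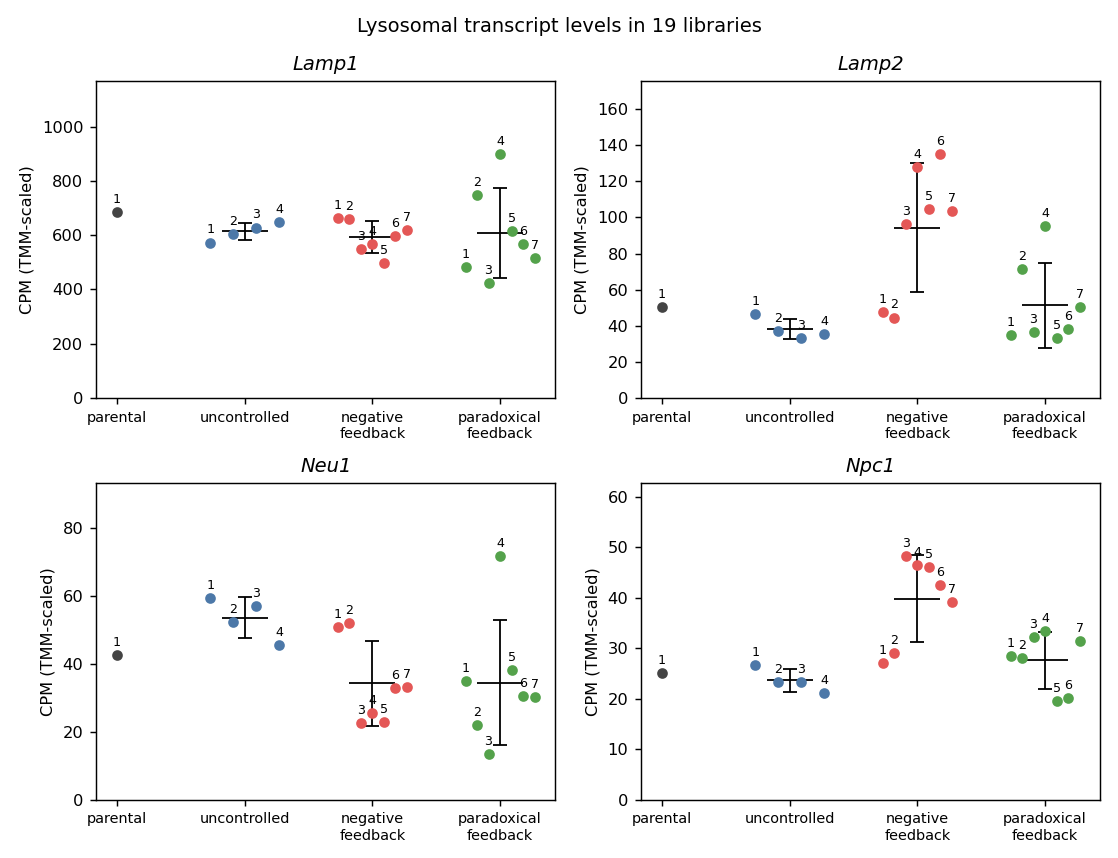
Levels of the 4 lysosomal transcripts in CPM (vertical axes, from 0) in each of 19 libraries, by culture condition; numbers are culture numbers, and bars give mean ± SD for groups of 4 and 7. Negative feedback cultures 3 to 7 sit apart from cultures 1 and 2 for Lamp2, Neu1 and Npc1, and paradoxical culture 4 is the highest of its group in all 4 panels.

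Among uncontrolled cultures the 4 transcripts varied little, with an SD of log2 CPM of 0.08 for Lamp1, 0.14 for Npc1, 0.17 for Neu1 and 0.20 for Lamp2, beside a median of 0.21 over the 8600 targets whose mean log2 CPM reached 4. Under negative feedback the SD was 0.65 for Lamp2, 0.50 for Neu1, 0.34 for Npc1 and 0.15 for Lamp1, beside a median of 0.43. Under paradoxical feedback the SD was 0.73 for Neu1, 0.59 for Lamp2, 0.37 for Lamp1 and 0.32 for Npc1, beside a median of 0.34. Neu1 spanned 5.29-fold in that group, from 13.6 CPM in culture 3 to 71.9 CPM in culture 4. Culture 4 was the highest of the 7 for all 4 transcripts, in CPM and in TPM. Culture 3 was the lowest for Neu1 and Lamp1 on both scales.

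Negative feedback cultures were then compared with uncontrolled cultures. Of the 4 members, Lamp2 and Npc1 were called higher and none lower, where a call is an adjusted p under 0.05 in the quasi-likelihood test of edgeR, fitted to all 19 libraries with Benjamini-Hochberg adjustment across the 28555 tested targets. By the same rule 9.76% of all tested targets were called, 8.65% higher and 1.11% lower, and among the 284 tested targets with a protein-coding symbol 28.2% were called higher. Lamp2 averaged 94.3 ± 35.6 CPM (SD, n = 7) against 38.2 ± 5.65 CPM (SD, n = 4), so the fitted difference on the log2 scale was 1.31 ± 0.35 (SE), with an edgeR adjusted p of 0.0314. Npc1 averaged 39.8 ± 8.58 CPM (SD, n = 7) against 23.7 ± 2.27 CPM (SD, n = 4), so the difference was 0.75 ± 0.20 (SE), with an edgeR adjusted p of 0.0322. The median log2 fold change was 0.35 over the 4 members, 0.44 over the targets with a symbol and 0.04 over all targets. The RNA came from bulk cultures, so a change in the number of cells of a kind and a change in RNA per cell cannot be told apart.

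Neu1 averaged 34.3 ± 12.5 CPM (SD, n = 7) against 53.7 ± 6.09 CPM (SD, n = 4), and its log2 difference of -0.64 ± 0.34 was not called (edgeR adjusted p = 0.202), with a 95% interval of -1.36 to 0.08. For Neu1 on log2(TPM + 0.5), limma gave -0.45 ± 0.32, also not called. Lamp1 averaged 593 ± 59.8 CPM against 614 ± 32.3 CPM, with a log2 difference of -0.05 ± 0.16 (edgeR adjusted p = 0.862) and a 95% interval of -0.39 to 0.29. The sign of the Lamp1 value depended on the unit, since on log2(TPM + 0.5) limma gave 0.20 ± 0.19, while the median of all targets moved from 0.04 to 0.16 on that scale. Whether Lamp2 differed more than Lamp1 was not tested.

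The Lamp2 and Npc1 calls rested on cultures 3 to 7. Without these 5 cultures the log2 fold changes were 0.28 for Lamp2 and 0.25 for Npc1, neither called, and Neu1 was at -0.05, in a fit that called 13 of 27303 targets. Without cultures 1 and 2 they were 1.55 and 0.89, and Neu1, at -0.99, was called lower (edgeR adjusted p = 0.0299), in a fit that called 40.4% of all targets. Both calls were also lost when any 1 of uncontrolled cultures 1 to 4 or of negative feedback cultures 3 to 7 was left out, where Lamp2 was at 1.20 to 1.41 and Npc1 at 0.70 to 0.81, with edgeR adjusted p-values of 0.0537 to 0.0883. Calls over all targets fell as well, from 2787 to between 7 and 15 without an uncontrolled culture and to between 965 and 1477 without 1 of cultures 3 to 7. With the share of counts on short targets as a covariate, the values were 0.39 for Lamp2 and 0.26 for Npc1, again not called, where 6 of 28555 targets were. Since cultures 3 to 7 are also the libraries with the lowest share, their level and the share cannot be told apart.

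**Figure D2:**
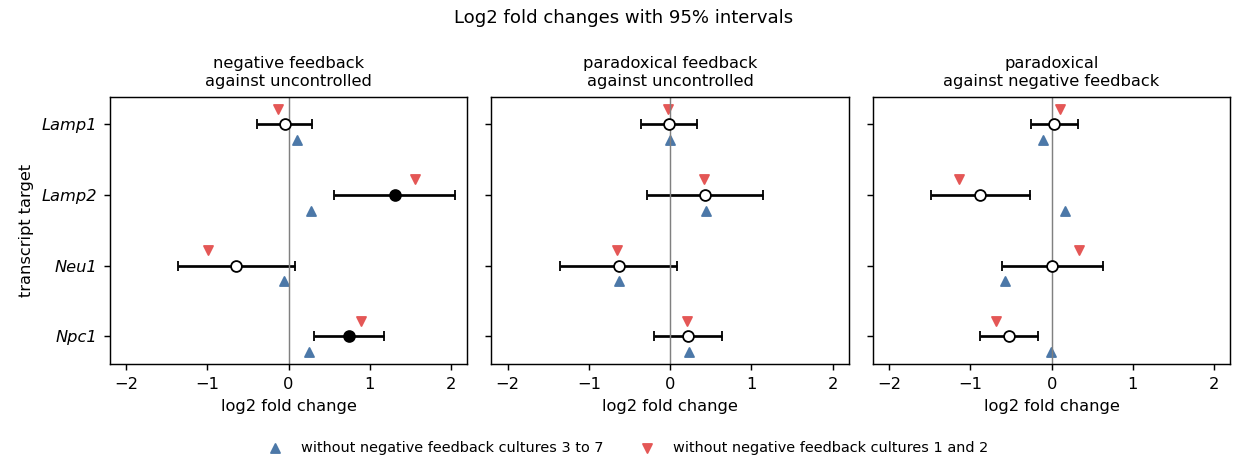
Log2 fold changes (horizontal axes) of the 4 transcripts in 3 comparisons; circles are the fit of all 19 libraries with 95% intervals, filled where called, and triangles are fits without negative feedback cultures 3 to 7 (pointing up) or 1 and 2 (pointing down). For Lamp2 against uncontrolled cultures the value goes from 1.31 to 0.28 without cultures 3 to 7.

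**Figure D3:**
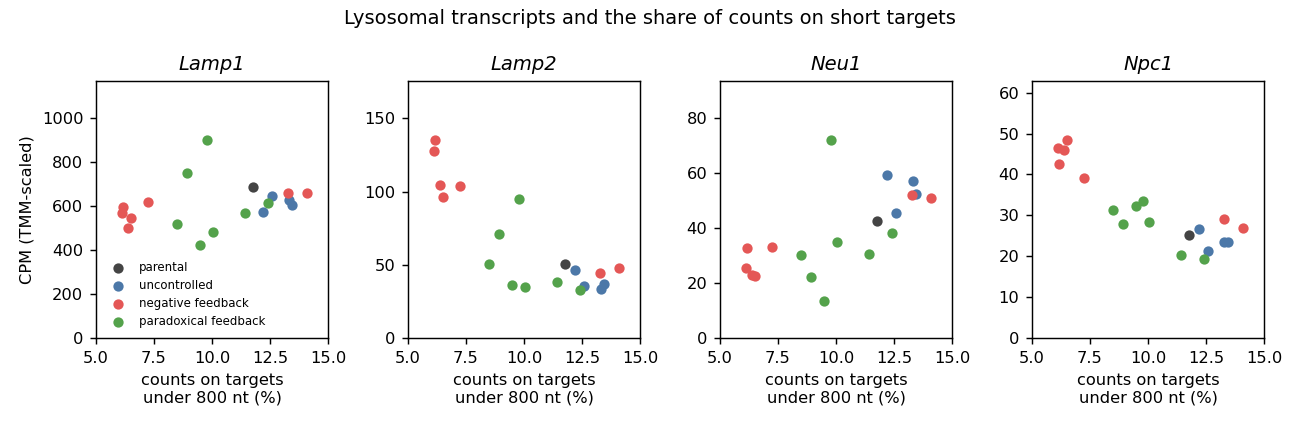
CPM of each transcript (vertical axes, from 0) against the percentage of counts on targets under 800 nt (horizontal axes), 1 point per library, coloured by condition. The 5 libraries between 6.12 and 7.22% are negative feedback cultures 3 to 7, which hold the highest values of Lamp2 and Npc1.

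Comparison of paradoxical feedback with uncontrolled cultures used the same 4 controls. None of the 4 members was called, against 6.43% of all tested targets, and none had an unadjusted p under 0.05, against 25.8% of all. DESeq2 and limma-voom called none of the 4 either, where they called 4823 and 2589 of 28555 targets. Lamp2 averaged 51.4 ± 23.5 CPM (SD, n = 7), at 0.43 ± 0.34 on the log2 scale with a 95% interval of -0.29 to 1.15 (edgeR adjusted p = 0.457). Without paradoxical culture 4 it was at 0.21 (edgeR adjusted p = 0.731). Neu1 averaged 34.6 ± 18.4 CPM (SD, n = 7), at -0.63 ± 0.34 with an interval of -1.35 to 0.09 (edgeR adjusted p = 0.250). Npc1 averaged 27.6 ± 5.66 CPM, at 0.22 ± 0.20 with an interval of -0.20 to 0.64, and Lamp1 averaged 607 ± 165 CPM, at -0.01 ± 0.16 with an interval of -0.36 to 0.33. The interval of Lamp2 therefore still includes a doubling, and that of Neu1 a fall of more than 1 on the log2 scale. The mean of Neu1 joined 6 low cultures with culture 4, and without culture 4 the log2 fold change was -0.92 (edgeR adjusted p = 0.0632).

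When the feedback groups were set against each other, paradoxical minus negative, none of the 4 members was called by edgeR, against 0.27% of all targets, and 2 had an unadjusted p under 0.05, against 17.6% of all. Lamp2 was at -0.88 ± 0.29 (95% interval -1.48 to -0.27, edgeR adjusted p = 0.135) and Npc1 at -0.53 ± 0.17 (95% interval -0.89 to -0.17, edgeR adjusted p = 0.133). Neu1 was at 0.01 ± 0.30 and Lamp1 at 0.03 ± 0.14. DESeq2 called both Lamp2 (-0.94, adjusted p = 0.0315) and Npc1 (-0.59, adjusted p = 0.0143) lower under paradoxical feedback, with 6.28% of all targets called. The choice of negative feedback cultures set these values. Without cultures 3 to 7, Lamp2 was at 0.16 and Npc1 at -0.01, and without cultures 1 and 2 they were at -1.14 and -0.68 and both were called, as were 20.9% of all targets. Leaving out culture 1 alone was enough for Npc1 to be called, at -0.60 (edgeR adjusted p = 0.0497), while calls over all targets went from 77 to 989.

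The parental line has 1 library, so its comparison with the mean of the 3 long-term groups assumes that it would vary as the cultures did. Log2 fold changes of the long-term cultures were 0.18 ± 0.56 for Lamp2, 0.24 ± 0.33 for Npc1, -0.09 ± 0.56 for Neu1 and -0.18 ± 0.26 for Lamp1. None was called, against 0.0175% of all targets, and none had an unadjusted p under 0.05, against 2.23% of all. For Npc1 the parental value lay inside the uncontrolled range. For Lamp1 and Lamp2 it lay above all 4 uncontrolled cultures, and for Neu1 below them.

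Ratios of members within a library do not depend on how libraries are scaled to each other. The ratio of Lamp1 to Lamp2 in TPM ran from 7.52 to 11.4 in uncontrolled cultures and was 8.29 in the parental library. Paradoxical feedback cultures spanned 5.74 to 11.3. Negative feedback cultures 1 and 2 had ratios of 8.40 and 8.99, and cultures 3 to 7 of 2.69 to 3.63. The 5 lowest ratios of the series were thus those of cultures 3 to 7. The ratio of Lamp2 to Neu1 was 0.607 to 0.808 in uncontrolled cultures and 1.22 in the parental library. Paradoxical feedback cultures spanned 0.893 to 3.34. Negative feedback cultures 1 and 2 had ratios of 0.973 and 0.886, and cultures 3 to 7 of 3.23 to 5.18. All 14 feedback cultures lay above all 4 uncontrolled cultures in this ratio, and so did the parental library. The ratio was chosen after its values were seen and has no test, and how many other pairs of targets separate in this way was not counted.

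**Figure D4:**
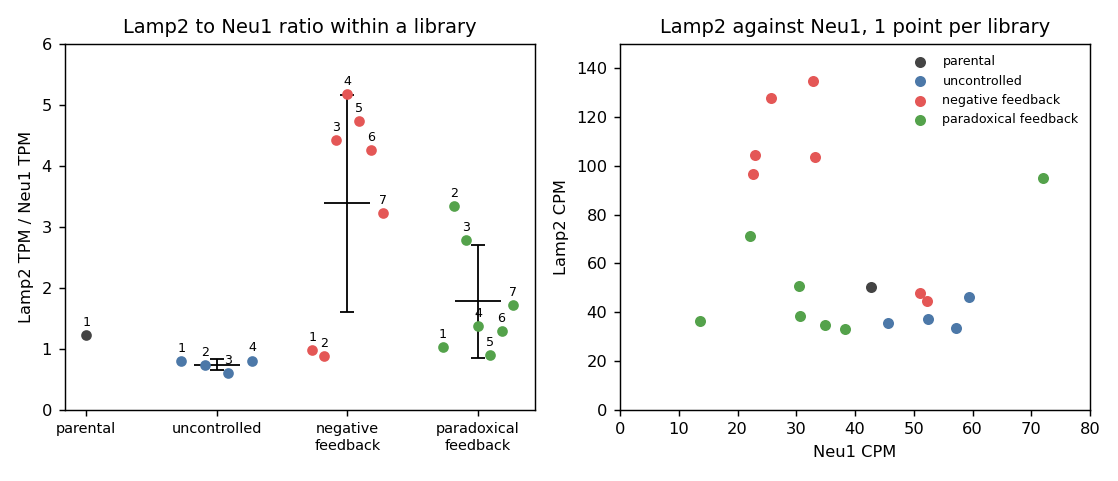
Left, ratio of Lamp2 to Neu1 within each library, from TPM, by culture condition, with culture numbers and bars of mean ± SD; right, Lamp2 CPM against Neu1 CPM, 1 point per library. Uncontrolled cultures lie between 0.607 and 0.808, below all 14 feedback cultures and the parental library, in a ratio chosen after its values were seen.

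Across libraries, log2 CPM of Lamp2 and Npc1 had a Pearson r of 0.87 over all 19, of 0.59 over the 14 without negative feedback cultures 3 to 7 and of 0.54 over the 7 paradoxical cultures. For Lamp1 and Lamp2 these values were 0.16, 0.69 and 0.83, and for Lamp1 and Neu1 0.63, 0.59 and 0.67. The points share their libraries' depth and composition, so the values are descriptions without a test. Among 238 named targets, those most like Lamp2 over 19 libraries were Manea, an enzyme that trims sugar chains in the Golgi, at r = 0.93, and St8sia4, which makes polysialic acid, at r = 0.91. Those most like Npc1 were Acaca, the enzyme that starts fatty acid synthesis, at r = 0.91, and Sec22b, a protein of vesicle fusion, at r = 0.90. Those most like Neu1 were Selenom, a selenoprotein of the endoplasmic reticulum, at 0.84, and Gmds, which makes an activated form of fucose, at 0.81. For Lamp1 they were Pparg, a nuclear receptor of lipid metabolism, at 0.80, and Sat1, an enzyme of polyamine breakdown, at 0.75. Without negative feedback cultures 3 to 7, over 14 libraries, r was 0.75 for Manea, 0.70 for St8sia4, 0.68 for Acaca, 0.66 for Sec22b, 0.84 for Selenom, 0.79 for Gmds, 0.86 for Pparg and 0.74 for Sat1. Pparg and Sat1 had fractional counts, so part of their reads was shared with other targets.

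Few other lysosomal genes carried a symbol here. Of 19 listed lysosomal membrane genes 3 matched, all of them members, and of 41 hydrolases 1 matched, which was Neu1. None of 20 genes of enzyme delivery and lysosome biogenesis matched, nor any of 12 subunits of the proton pump. Of 16 autophagy genes 1 matched, Hspa8, a chaperone that delivers proteins to lysosomes. Hspa8 was called higher under paradoxical feedback, at 1.65 ± 0.33 on the log2 scale (edgeR adjusted p = 0.0144), and stood at 0.96 under negative feedback (edgeR adjusted p = 0.0606). The first call was lost without uncontrolled culture 1 (adjusted p = 0.0616) or 2 (adjusted p = 0.0586), and with the replicate number as a block (adjusted p = 0.110).

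The sterol list holds genes that take up, sense and move cholesterol, and 10 of its 21 genes were tested, Npc1 among them. Against uncontrolled cultures 4 were called higher and 0 lower under negative feedback, beside 8.65% of all targets and 28.2% of targets with a symbol called higher. The median log2 fold change was 0.49, beside 0.04 over all targets and 0.44 over those with a symbol. Both the count of 4 and this median include Mbtps2, described below, which is no support for the list. Without Mbtps2 the middle value would be that of Scap, at 0.41, below the 0.44 of targets with a symbol. Srebf2, the transcription factor that drives cholesterol synthesis, averaged 188 ± 81.6 CPM (SD, n = 7) against 84.8 ± 9.46 CPM (SD, n = 4), which gave 1.14 ± 0.31 on the log2 scale (edgeR adjusted p = 0.0326). Scarb1, the receptor for high-density lipoprotein, averaged 21.3 ± 13.9 CPM against 4.33 ± 0.474 CPM, at 2.29 ± 0.59 (edgeR adjusted p = 0.0266). Scarb1 shared reads with other targets. Mbtps2, a protease that activates sterol regulators, is the remaining gene of the 4 and also shared reads. It held 0 to 0.423 CPM in uncontrolled and at most 0.927 CPM in paradoxical feedback cultures against up to 9.90 CPM under negative feedback, so it passed the filter on low counts only through the group where it was high, and its call is no support for the list. Mbtps1, a further such protease, stood at 0.58 ± 0.18, Scap, the sterol sensor, at 0.41 ± 0.26, Soat1, which esterifies cholesterol, at 0.37 ± 0.15 and Srebf1, a factor of lipid synthesis, at 0.35 ± 0.38, none called. Insig1, which holds back activation of the sterol factors, stood at -0.20 and Insig2 at 0.02, neither called. Insig2 shared reads with other targets as well.

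As for Npc1, the sterol calls rested on cultures 3 to 7. Without them 0 of the 10 were called, in a fit that called 13 of 27303 targets, and Srebf2 stood at -0.14 and Scarb1 at -0.41. Without cultures 1 and 2 there were 6 calls, in a fit that called 40.4% of all targets. The 10 include Mbtps2, in these counts and in the medians that follow. Leaving out any 1 of the 4 uncontrolled cultures, or any 1 of negative feedback cultures 4, 5 and 6, also left 0 sterol calls, and leaving out culture 3 or 7 left 1 or 2. Calls over all targets fell in the same fits. Under paradoxical feedback 1 of the 10 was called higher, Scarb1 at 1.99 ± 0.58 (edgeR adjusted p = 0.0489), beside 4.93% of all targets and 19.7% of targets with a symbol. The median was 0.29, beside 0.02 over all targets and 0.55 over those with a symbol. The Scarb1 call held in 3 of 18 fits that left out 1 library and in 4 of 10 other settings. In paradoxical against negative feedback 0 of the 10 were called, beside 0.27% of all targets and 0.35% of targets with a symbol. The median was -0.33, beside -0.06 over all targets and -0.007 over those with a symbol.

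**Figure D5:**
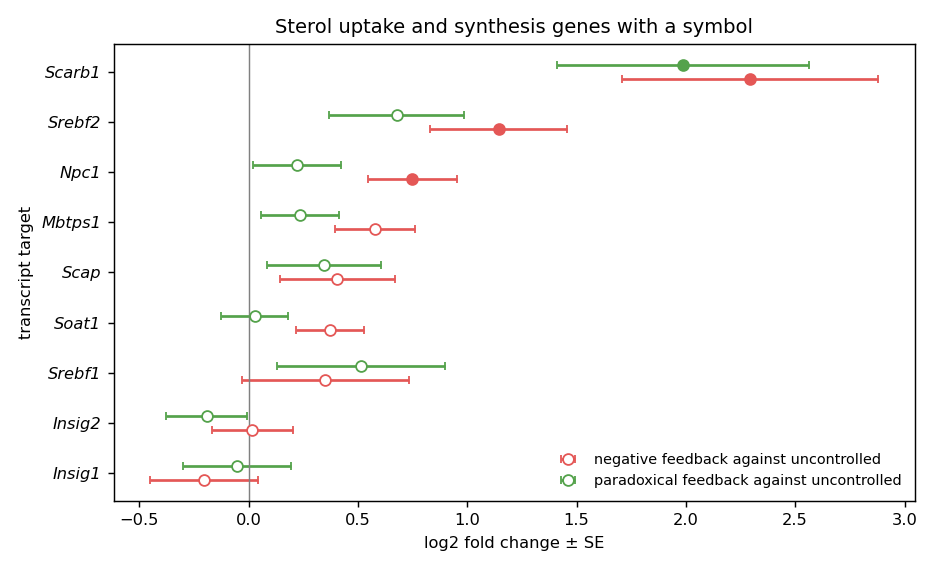
Log2 fold changes of the tested sterol genes (horizontal axis), Npc1 included, under negative and paradoxical feedback against uncontrolled cultures, with bars of ± SE and filled symbols for called values. Mbtps2 is not drawn because its uncontrolled counts were near 0. Both series share the 4 uncontrolled libraries.

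Of 17 listed genes that add, make or remove sialic acid, 7 matched and 6 were tested, and 0 were called in any comparison. In the order of the comparisons above, 9.76, 6.43, 0.27 and 0.0175% of all targets were called. St3gal4, described below, is 1 of the 6 and passed the filter on low counts only through negative feedback, so its lack of a call carries no weight. Neu2, the cytosolic sialidase, stood at 0.50 ± 0.41 under negative feedback (edgeR adjusted p = 0.409), and Neu3, the sialidase of the plasma membrane, at -0.19 ± 0.28 (edgeR adjusted p = 0.674). Neu3 shared reads with other targets. Gne, which starts sialic acid synthesis, stood at 0.29 ± 0.17 and Slc35a1, which carries activated sialic acid into the Golgi, at 0.05 ± 0.13. Neu1 is the most negative of the 3 sialidases in that comparison, at -0.64, and the differences between them were not tested. St8sia4, named above for its likeness to Lamp2, is not among the 17. Against uncontrolled cultures it stood at 1.63 ± 0.52 under negative feedback (edgeR adjusted p = 0.0556) and at 0.21 ± 0.49 under paradoxical feedback, neither called.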

How the data were processed

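Polyadenylated RNA of 19 cultures was sequenced after library preparation with a NEBNext Ultra II kit, per the labels' protocols. Per the submitters' processing notes the tools were Trim Galore and kallisto. For versions, genome build and annotation: not given in the sources used here. For each transcript target the deposited files give estimated counts and TPM made by the authors, per the file headers; effective length was the target length minus 299 nt in every file. Estimated counts were rounded to whole numbers, filtered with edgeR's filterByExpr (28555 of 46718 targets kept) and scaled by TMM. All 19 libraries entered 1 quasi-likelihood fit by culture condition in edgeR 4.0.16 (R 4.3.3), with Benjamini-Hochberg adjustment over all tested targets and a threshold of 0.05; limma 3.58.1 and DESeq2 1.42.0 served as alternatives. CPM is TMM-scaled.

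Symbols came from RefSeq annotation CriGri-PICRH-1.0 by accession and reached 528 targets, 0 of them among 46184 predicted transcripts. Named genes are the 4 members, every tested gene of 7 pathway lists, and for each member its nearest patterns (the first 2 of 5 by Pearson r among named targets whose mean log2 CPM reached 1). A further 4 marker lists, 25 symbols, had no match. 1 item is not reported here. The members and lists were chosen with earlier results of these data known. The alternatives were other scaling, tools and filters, the compared groups alone, a replicate block, the short-target share as a covariate, and leaving out libraries. No within-group pair of libraries agreed within sampling noise. The test was checked on simulated data.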

Additional observations from a re-analysis of the deposited data

Results flagged for a closer look

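Neu1 in paradoxical feedback culture 4, at 71.9 CPM, stood above the other 6 cultures of its group, the nearest of which held 38.3 CPM. The gap was 0.577 of the group's range, past Dixon's 95% critical value for 7 samples. Of 12 gene and group sets checked this was the only one past its limit, and chance passes about 1 in 20. Without this culture the log2 fold change of Neu1 under paradoxical feedback against uncontrolled cultures was -0.92 in place of -0.63, and edgeR did not call either (adjusted p = 0.0632 and 0.250). The same culture was also the highest of its group for Lamp1 at 898 CPM, Lamp2 at 95.1 CPM and Npc1 at 33.5 CPM.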

How the results depend on the processing

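Of 156 log2 fold changes under other settings 114 kept their direction and side of the threshold, as did 256 of 288 with 1 library left out; except where stated, the cause of a change was not tested. In negative feedback against uncontrolled cultures the number of members called was 0 under scaling by library size alone, with only the groups compared, with the replicate block, with the short-target covariate and without cultures 3 to 7, and 0 to 2 with 1 library left out. Over all targets these settings called 2270, 10, 4, 6 and 13, against 2787. In that order Lamp2 was at 1.24, 1.28, 1.18, 0.39 and 0.28 and Npc1 at 0.68, 0.73, 0.77, 0.26 and 0.25. With 1 library left out Lamp2 was at 1.20 to 1.42 and Npc1 at 0.70 to 0.82. Neu1 was called at -0.99 without cultures 1 and 2. Lamp1 turned to 0.20 on log2(TPM + 0.5), 0.066 with the covariate and 0.11 without cultures 3 to 7, where Srebf2 turned to -0.14 and Scarb1 to -0.41.

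In paradoxical feedback against uncontrolled cultures no member was called under any setting. Lamp1 turned to 0.0036 with the replicate block and 0.062 with the covariate (-0.13 to 0.056 with 1 library left out), and with the covariate Lamp2 turned to -0.12 and Npc1 to -0.093. In paradoxical against negative feedback 2 members were called by DESeq2 (Lamp2 at -0.94, Npc1 at -0.59) and 2 without cultures 1 and 2 (-1.14 and -0.68), and 0 to 1 with 1 library left out, where Npc1 was at -0.60 to -0.46. Lamp2 turned to 0.16 without cultures 3 to 7. Lamp1 turned to -0.0021 by library size, -0.026 by DESeq2, -0.23 on TPM, -0.0034 with the covariate and -0.11 without cultures 3 to 7 (-0.086 to 0.10 with 1 library left out). Neu1 turned to -0.017, -0.048, -0.29, -0.12 and -0.57 under the same 5 settings, to -0.038 by limma-voom, -0.0036 with only the groups compared and -0.035 with the replicate block (-0.28 to 0.15 with 1 library left out). Against the parental library, with the block, the covariate and without cultures 3 to 7, Lamp2 turned to -0.17, -0.11 and -0.17 and Neu1 to 0.17, 0.039 and 0.099.

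Departures from group means in log2 CPM correlated at -0.16 to 0.11 over 15 same-numbered pairs, beside -0.18 to 0.27 over 90 other pairs. Under negative feedback these departures include the gap between cultures 1 and 2 and cultures 3 to 7. The values therefore cannot tell whether replicate numbers pair the samples. With the replicate block 4 targets were called in negative feedback against uncontrolled, against 2787 without it, and the count reached 11460 without cultures 1 and 2. For paradoxical feedback it ran from 3 to 5675 around 1835, for paradoxical against negative feedback from 0 to 5937 around 77, and against the parental library from 0 to 298 around 5. The sterol count of 4, Mbtps2 included, became 2 by limma-voom, which called 5039 of 28555 targets. It became 0 with only the groups compared, the block, the covariate and without cultures 3 to 7. Srebf2 and Scarb1 were each called in 5 of 10 settings. The paradoxical count of 1 moved to 0 or 2 in 9 of 10. The count of 0 between the feedback groups became 3 by DESeq2 and 6 without cultures 1 and 2, where 6.28 and 20.9% of all targets were called. Every member had at least 150 counts in each library.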

Other observations

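The remaining ratios of members within a library, from TPM, were computed after the levels were seen and have no test. The ratio of Npc1 to Neu1 was 0.126 to 0.143 in uncontrolled cultures, 0.143 to 0.729 under paradoxical feedback and 0.181 in the parental library. Negative feedback cultures 1 and 2 had ratios of 0.163 and 0.171, and cultures 3 to 7 of 0.362 to 0.656. The ratio of Lamp2 to Npc1 was 4.82 to 5.85 in uncontrolled cultures, 6.74 to 10.7 in negative feedback cultures 3 to 7, 3.82 to 9.57 under paradoxical feedback and 6.77 in the parental library.

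St3gal4, an enzyme that adds sialic acid to glycoproteins, was listed at 0 in the uncontrolled, paradoxical feedback and parental libraries and reached 6.10 CPM under negative feedback. Its reads were shared with other targets, and it passed the filter on low counts only through that group, so no test is given.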
